A study of Mus musculus with 13 samples.

Results

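The genes described here are 35 mouse genes of the hypoxia response and of glycolysis, read from the probe sets of the series' expression values that carry their symbols. Of these, 31 have a probe set annotated to their symbol alone, and all 31 passed the filter on dim genes, beside 13785 genes tested among 18193 with a probe set of their own. Gpi1 and Eno1 are listed on no probe set of the annotation used, and Gapdh and Bnip3l are read only by probe sets shared with pseudogenes.

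The study treated SM1 tumours, a transplanted mouse melanoma with the BRAF V600E mutation, growing in C57BL/6 mice that had been given splenocytes by adoptive transfer. The recipients were of 2 kinds. Control recipients were given C57BL/6 splenocytes and then vehicle (2 arrays) or dabrafenib together with trametinib (2 arrays). Recipients of pmel-1 splenocytes, whose T cells recognise the melanocyte protein gp100, were given vehicle (2 arrays), dabrafenib (2 arrays), trametinib (2 arrays) or both drugs (3 arrays). Every tumour thus carried the BRAF mutation and every mouse received transferred splenocytes, which are a mixture of cell types and not purified T cells. Dabrafenib inhibits the mutant BRAF kinase itself. Trametinib inhibits MEK, the kinase that BRAF activates. The sources used here give no doses, days of treatment or age of the mice. They do not say whether replicates are separate animals, so a p-value here reflects only the spread between these arrays, which may be technical. The RNA came from whole tumours, so that fewer cells of a type and less RNA per cell cannot be told apart.

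Cells short of oxygen stabilise the HIF transcription factors, dimers of an oxygen-regulated subunit (Hif1a or Epas1, also called HIF-2 alpha) and a constant partner. When oxygen is present the prolyl hydroxylases Egln1 and Egln3 mark that subunit for destruction by the VHL ubiquitin ligase. HIF binds a short core sequence near its target genes and raises glucose transporters, glycolytic enzymes, lactate export and vessel growth factors, and growth signalling through BRAF and MEK is known to feed into the same genes in melanoma.

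Values are log2 intensities, and a difference of 1 on that scale is a doubling. Within a group, arrays correlated with each other at 0.983 to 0.994 across genes, which are not independent replicates. Arrays of different groups correlated at 0.905 to 0.994, so the 2 ranges overlapped. All 10 melanocyte markers read above the filter level of 5.79 on at least 1 array. Their summed level (log2) lay between 16.39 and 16.49 on the vehicle arrays and between 16.89 and 17.03 on the arrays given a drug. A measure of RNA state moved with the groups. The log2 ratio of the 3′ over the 5′ probe sets for β-actin and Gapdh, which rises as messenger RNA is shortened, lay between 0.18 and 0.42 on the 6 arrays of control recipients and pmel-1 vehicle tumours. It was 0.60 and 1.65 under dabrafenib, 1.22 and 0.68 under trametinib and 1.31, 1.26 and 0.86 under both drugs in pmel-1 recipients.

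The promoters of the 4 genes with the smallest p between dabrafenib and trametinib are shown first, because they hold the letters that HIF is known to bind. Each is the 250 bases before the RefSeq start of the gene in build GRCm38.p6, 5′ to 3′ on the strand of the gene. The capitals mark ACGTG and GCGTG, the 2 forms of the HIF core, or their reverse complements CACGT and CACGC. P4ha2 lies at chr11:54100674-54100923 on the plus strand, Adm at chr7:110627407-110627656 on the plus strand, Slc2a1 at chr4:119108495-119108744 on the plus strand and Bnip3 at chr7:138909507-138909756 on the minus strand.
P4ha2: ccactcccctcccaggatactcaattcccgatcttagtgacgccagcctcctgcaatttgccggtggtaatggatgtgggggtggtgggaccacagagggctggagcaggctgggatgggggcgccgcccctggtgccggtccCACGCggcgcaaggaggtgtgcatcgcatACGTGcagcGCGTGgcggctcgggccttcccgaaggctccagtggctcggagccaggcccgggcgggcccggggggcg
Adm: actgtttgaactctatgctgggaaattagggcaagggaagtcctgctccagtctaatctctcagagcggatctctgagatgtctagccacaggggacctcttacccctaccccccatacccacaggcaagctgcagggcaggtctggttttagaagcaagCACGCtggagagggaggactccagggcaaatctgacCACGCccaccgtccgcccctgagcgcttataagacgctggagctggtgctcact
Slc2a1: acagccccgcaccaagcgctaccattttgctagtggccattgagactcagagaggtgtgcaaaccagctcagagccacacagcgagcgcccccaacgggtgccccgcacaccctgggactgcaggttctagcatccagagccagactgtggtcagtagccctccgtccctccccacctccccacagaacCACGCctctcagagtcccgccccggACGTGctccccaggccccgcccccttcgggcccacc
Bnip3: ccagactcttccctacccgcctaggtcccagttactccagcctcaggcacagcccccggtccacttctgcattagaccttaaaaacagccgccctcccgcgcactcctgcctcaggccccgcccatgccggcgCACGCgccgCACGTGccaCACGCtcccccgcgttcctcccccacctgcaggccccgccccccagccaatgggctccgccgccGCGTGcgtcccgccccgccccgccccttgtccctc
P4ha2 has 3 matches, which begin 107, 78 and 69 bases before the start. Adm has 2 matches and Slc2a1 has 2. Bnip3 has 5, of which 2 are the overlapping strands of the palindrome CACGTG. Over the RefSeq table, in the 250 bases before each start, 36 of the 44 windows of these genes (81.8%) held ACGTG or GCGTG on either strand, and 12679 of all 32851 windows (38.6%) did. The table held windows for 31 of the 35 genes and not for Slc2a3, Epas1, Ndrg1 and Bnip3l. Of the 31 genes 28 had a match in at least 1 window, as did 11226 of all 27025 genes in the table. The list was drawn up as hypoxia and glycolysis genes, so a high share of matches is no result of these arrays. A match describes these letters only and is no measurement of binding.

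The question the drugs' contrast addresses is whether inhibiting BRAF and inhibiting MEK left hypoxia and glycolysis genes at the same level in pmel-1 recipients. Hypoxia and glycolysis genes were mostly lower under dabrafenib, but 1 of the 31 differences passed the adjusted threshold. The limma fit called P4ha2, which was 2.39-fold lower under dabrafenib. Over all genes tested it called 0.776%, of which 0.189% lower and 0.588% higher. The log2 difference was below 0 for 28 of 31 genes (48.4% of all genes) with a median of −0.66 (0.007 over all genes), and 18 had an unadjusted p under 0.05 (11.8% of all genes). In 20 of the 31 genes both dabrafenib arrays were below both trametinib arrays (19.6% of all genes) and in 1, Hk1, both were above (20.7% of all genes). The call for P4ha2 rests on both trametinib arrays and on dabrafenib replicate 2. The count of calls was 0 without dabrafenib replicate 2 or without either trametinib replicate, and 16 without dabrafenib replicate 1.

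**Figure D1:**
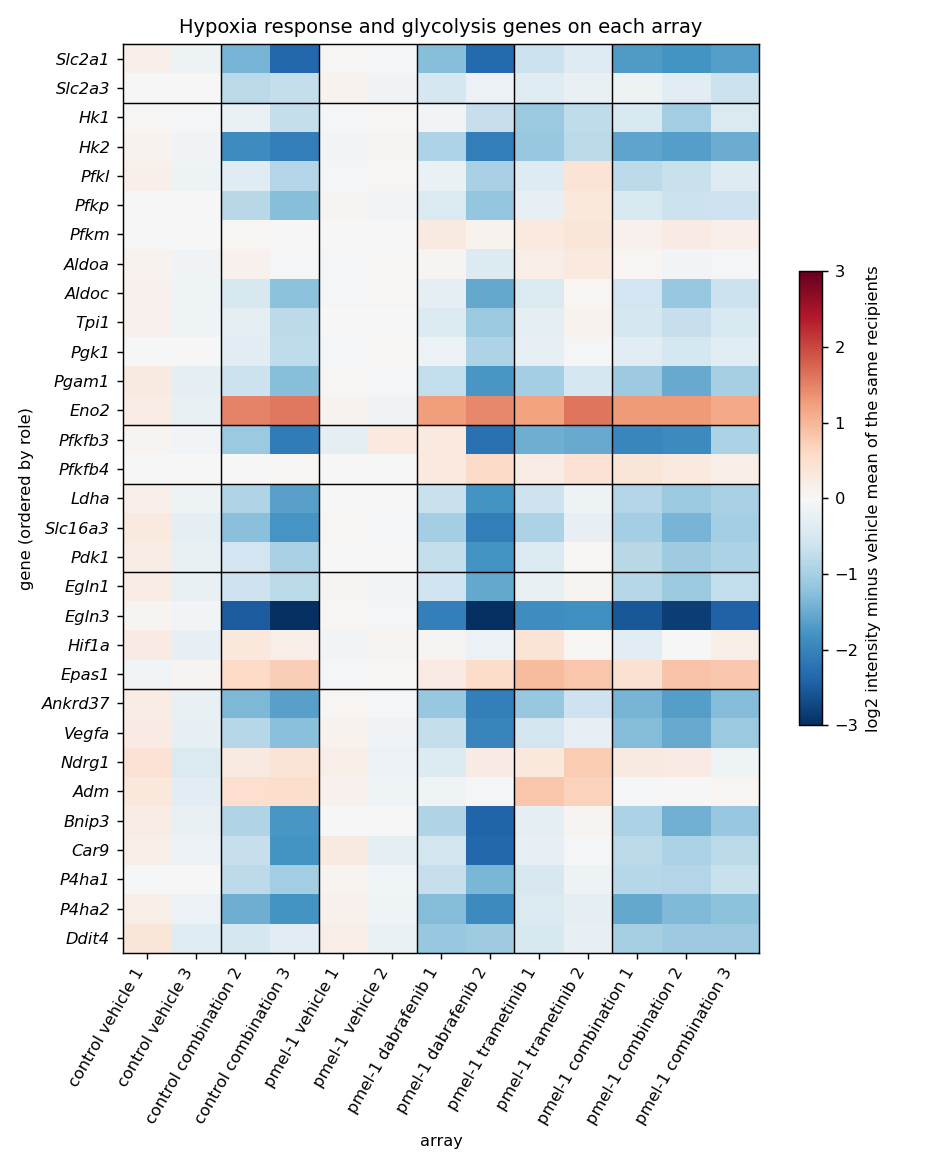
Log2 intensity of the 31 hypoxia and glycolysis genes (rows, ordered by role) on each of the 13 arrays (columns), as the difference from the vehicle mean of the same kind of recipient, from blue (lower) to red (higher). Egln3 is low on all 9 arrays given a drug, Eno2 is high on all 9, and many other rows are darkest in dabrafenib replicate 2.

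**Figure D2:**
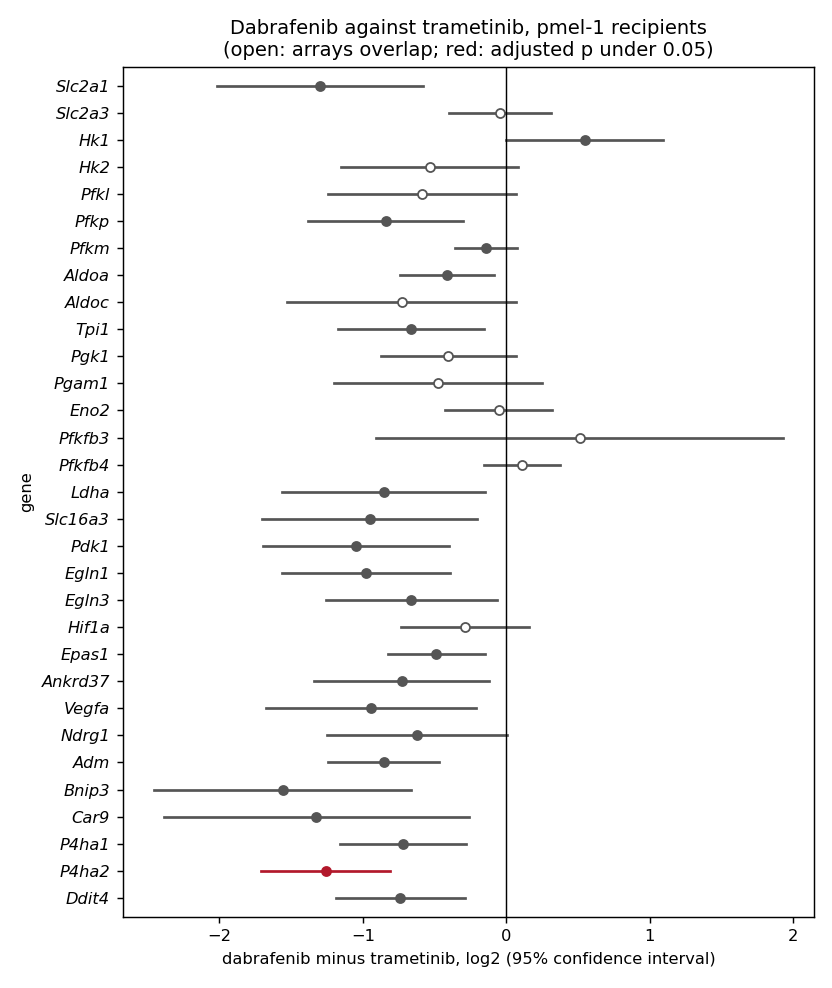
Dabrafenib minus trametinib for the 31 genes in pmel-1 recipients (2 arrays each) on the log2 scale, with the 95% confidence interval of the limma fit. Open points are genes whose arrays overlap, and P4ha2 (red) is the 1 gene with an adjusted p under 0.05.

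Glucose uptake was represented by the RNA of 2 transporter genes, and uptake itself was not measured. Slc2a1 encodes GLUT1, the main carrier of glucose into tumour cells. It read 12.35 and 12.29 in pmel-1 vehicle tumours, 11.03 and 9.99 under dabrafenib, 11.68 and 11.94 under trametinib and 10.62, 10.54 and 10.67 under both drugs. In control recipients it read 12.05 and 11.75 under vehicle and 10.50 and 9.54 under both drugs. Every dabrafenib and combination array was thus below every trametinib and vehicle array. Slc2a1 fell by 1.81 ± 0.33 (SE of the limma fit, as throughout) under dabrafenib, a 3.50-fold change (adjusted p = 0.00129), by 1.71 ± 0.30 under the combination in pmel-1 recipients (adjusted p = 8.01e-04) and by 1.88 ± 0.33 in control recipients (adjusted p = 0.00111). The calls in pmel-1 recipients were lost when the 3′ over 5′ ratio entered as a covariate (adjusted p = 0.0554 and 0.0708). Under trametinib Slc2a1 was at −0.51 ± 0.33 against vehicle (adjusted p = 0.249). Both trametinib arrays were below both pmel-1 vehicle arrays, and the 2 other probe sets gave −0.92 and −0.57 in this comparison. Dabrafenib minus trametinib was −1.30 ± 0.33 (adjusted p = 0.112), and the 2 other Slc2a1 probe sets gave −1.72 and −1.61. Slc2a3, which encodes the high-affinity transporter GLUT3, was dimmer and fell under the combination in control recipients by 0.76 ± 0.16 (adjusted p = 0.00355). In the 3 comparisons with vehicle in pmel-1 recipients it lay between −0.37 and −0.29 and was not called, with −0.04 ± 0.16 between the drugs.

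Against vehicle in pmel-1 recipients, dabrafenib lowered 17 and raised 2 of the 31 genes, and trametinib lowered 4 and raised 4. Over all genes tested the fit called 41.4% for dabrafenib (19.6% lower, 21.8% higher) and 38.6% for trametinib (19.1% lower, 19.5% higher). The combination lowered 16 and raised 2 in pmel-1 recipients (45.6% of all genes called, 21.2% lower and 24.3% higher), and lowered 13 and raised 3 in control recipients (35.4% called, 16.7% lower and 18.7% higher). The median over the 31 genes was −0.98, −0.18, −0.80 and −0.77 in these 4 comparisons. The 3 comparisons in pmel-1 recipients share their vehicle arrays, and the drugs' difference from each other is the contrast given above. These counts moved with single arrays and with the RNA ratio. In pmel-1 recipients that ratio lay between 0.18 and 0.22 under vehicle and between 0.60 and 1.65 under the drugs. A call lost when the ratio entered the fit therefore cannot tell RNA state from a drug effect. The dabrafenib count of 19 was 12 without pmel-1 vehicle replicate 1, 10 without dabrafenib replicate 2 and 8 when the 3′ over 5′ ratio entered the fit. The trametinib count of 8 was 5 and 4 without pmel-1 vehicle replicates 1 and 2 and 4 without trametinib replicate 1. The combination count of 18 was 11 without pmel-1 vehicle replicate 1 and 6 with that covariate, and the control recipients' count of 16 was 9 without control combination replicate 3 and 24 with the covariate. The dabrafenib calls of Pfkp, Tpi1, Pfkfb4, Egln1, Vegfa and Car9 were also lost when only the 4 arrays compared were fitted.

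**Figure D3:**
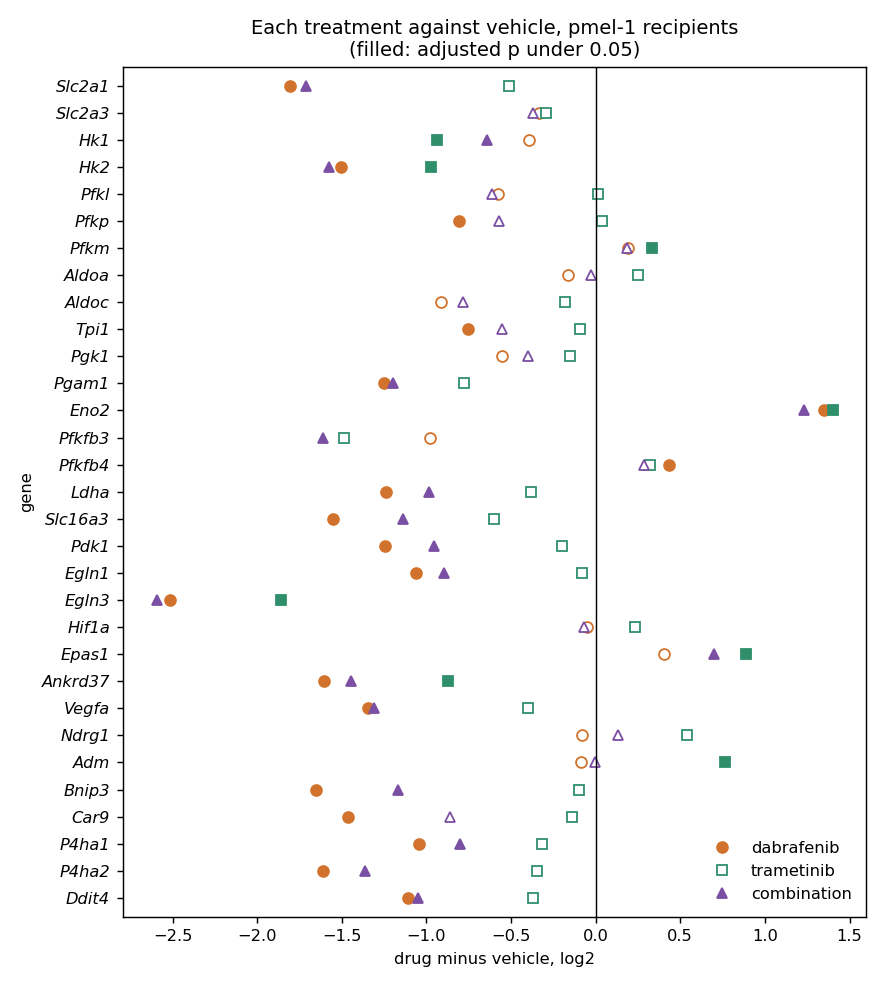
Dabrafenib (circles), trametinib (squares) and the combination (triangles) minus vehicle in pmel-1 recipients for the 31 genes on the log2 scale, each point a difference of group means, with filled symbols for an adjusted p under 0.05. Dabrafenib and combination points lie close together, and trametinib points lie between −0.51 and −0.10 for Slc2a1, P4ha2, Bnip3 and Pdk1 and are filled for Egln3, Hk2 and Eno2.

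The enzymes of glycolysis itself were represented by 11 tested genes, none of which was called between the drugs (10 below 0, 3 with an unadjusted p under 0.05 by limma). Over all genes 0.776% were called, 48.4% were below 0 and 11.8% had an unadjusted p under 0.05. Against vehicle, dabrafenib lowered 4 of the 11 and raised 1, trametinib lowered 2 and raised 2, and the combination lowered 3 and raised 1 in each kind of recipient. These are 5, 4, 4 and 4 of 11 genes, beside 41.4%, 38.6%, 45.6% and 35.4% of all genes called. Hexokinase traps glucose in the cell, and Hk2 is its inducible form. Hk2 read 10.38 and 10.52 in pmel-1 vehicle tumours, 9.53 and 8.37 under dabrafenib, 9.33 and 9.64 under trametinib and 8.87, 8.80 and 8.97 under both drugs. In control recipients Hk2 read 10.73 and 10.51 under vehicle and 8.74 and 8.55 under both drugs. Each drug's arrays were below vehicle, while the dabrafenib and trametinib arrays overlapped. Hk2 fell by 1.51 ± 0.28 under dabrafenib (adjusted p = 0.00152), by 0.97 ± 0.28 under trametinib (adjusted p = 0.0175), and by 1.57 ± 0.26 and 1.98 ± 0.28 under the combination in pmel-1 and control recipients (adjusted p = 5.14e-04 and 3.01e-04). The fall under trametinib was not called without pmel-1 vehicle replicate 1 or 2, without trametinib replicate 1 or when the 3′ over 5′ ratio entered the fit. Hk1, the widely expressed hexokinase, fell under trametinib by 0.94 ± 0.25 (adjusted p = 0.0120) and under the combination in pmel-1 recipients by 0.65 ± 0.23 (adjusted p = 0.0382). It was at −0.39 ± 0.25 under dabrafenib (adjusted p = 0.244), and dabrafenib minus trametinib was 0.55 ± 0.25 (adjusted p = 0.429). The first Hk1 call was lost without trametinib replicate 1 or pmel-1 vehicle replicate 2, and the second without combination replicate 2 or either pmel-1 vehicle replicate. Both were lost when the RNA ratio entered the fit (−0.45 and −0.04, adjusted p = 0.196 and 0.943). The other Hk1 probe set, dimmer but above the filter level on all 13 arrays, gave −1.02 under dabrafenib, −1.62 under trametinib and −1.60 under the combination in pmel-1 recipients.

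Enolase makes phosphoenolpyruvate, and Eno2 is the form best known from neurons. Eno2 was the 1 gene of the 11 that rose in all 4 comparisons with vehicle. It read 8.46 and 8.24 in pmel-1 vehicle tumours, 9.61 and 9.79 under dabrafenib, 9.55 and 9.95 under trametinib and 9.63, 9.64 and 9.48 under both drugs. In control recipients it read 8.06 and 7.62 under vehicle and 9.34 and 9.42 under both drugs. All 9 arrays given a drug were above all 4 vehicle arrays. Eno2 rose by 1.35 ± 0.17 under dabrafenib (2.54-fold, adjusted p = 1.43e-04), 1.40 ± 0.17 under trametinib (2.64-fold, adjusted p = 1.16e-04), 1.23 ± 0.15 under the combination in pmel-1 recipients (adjusted p = 9.94e-05) and 1.54 ± 0.17 in control recipients (adjusted p = 6.12e-05). These 4 calls held under each alternative run. The drugs did not differ detectably, at −0.05 ± 0.17 (95% interval −0.43 to 0.32).

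Phosphofructokinase commits sugar to glycolysis and is built from Pfkl, Pfkp and Pfkm subunits. Pfkp fell under dabrafenib by 0.81 ± 0.25 (adjusted p = 0.0214) and under the combination in control recipients by 1.05 ± 0.25 (adjusted p = 0.00627), the first lost without dabrafenib replicate 2 or either pmel-1 vehicle replicate and the second without control combination replicate 3. With the RNA ratio in the fit the first was at −0.18 (adjusted p = 0.669). Pfkm, the muscle form, rose under trametinib by 0.33 ± 0.10 (adjusted p = 0.0198) but was not called when any 1 of the 4 arrays compared was left out. Pfkl was called in none of the comparisons with vehicle and lay between −0.63 and 0.01, while the dimmest of its 3 probe sets gave 0.21 under dabrafenib and 0.49 under trametinib. Pgam1, phosphoglycerate mutase, fell under dabrafenib by 1.25 ± 0.33 (adjusted p = 0.0106) and under the combination by 1.20 ± 0.30 in pmel-1 and 0.97 ± 0.33 in control recipients (adjusted p = 0.00707 and 0.0404). The first of these was lost without dabrafenib replicate 2 or pmel-1 vehicle replicate 1, and the last without control vehicle replicate 1 or control combination replicate 3. Both calls in pmel-1 recipients were lost when the RNA ratio entered the fit (−0.37 and −0.30, adjusted p = 0.438 and 0.522). Tpi1, which interconverts the triose phosphates, fell under dabrafenib by 0.75 ± 0.23 (adjusted p = 0.0223), a call lost without dabrafenib replicate 2 or either pmel-1 vehicle replicate, and with the RNA ratio (−0.14, adjusted p = 0.712). The aldolases Aldoa and Aldoc and the kinase Pgk1 were called in none of the comparisons with vehicle, Aldoa lying between −0.17 and 0.25, Aldoc between −0.91 and −0.18 (between −0.12 and 0.49 on its other, dimmer probe set) and Pgk1 between −0.55 and −0.15.

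Gapdh, the dehydrogenase in the middle of the pathway, has array control probe sets, and the 3′ one is given for its level. It read 14.39 and 14.35 in pmel-1 vehicle tumours, 14.08 and 13.53 under dabrafenib, 14.04 and 14.22 under trametinib and 13.82, 13.84 and 13.995 under both drugs, and in control recipients 14.32 and 14.16 under vehicle and 14.12 and 13.67 under both drugs. The 5′ probe set of the same transcript read 13.65 and 12.04 under dabrafenib and 13.16 and 13.78 under trametinib, against 14.27 and 14.30 in pmel-1 vehicle tumours. Dabrafenib replicate 2 was the lowest array on both. The control probe sets were not tested. On the 3 probe sets shared with Gapdh pseudogenes dabrafenib minus trametinib lay between −0.69 and −0.29.

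Pfkfb3 and Pfkfb4 make and degrade fructose bisphosphate, the activator of phosphofructokinase, and were, with Hk1, the 3 genes whose difference between the drugs was above 0. Pfkfb3 read 10.73 and 8.20 in dabrafenib replicates 1 and 2, 8.97 and 8.93 under trametinib, 10.14 and 10.74 in pmel-1 vehicle tumours and 8.48, 8.52 and 9.49 under both drugs. The dabrafenib arrays were thus on either side of the trametinib arrays, the first at the vehicle level. Pfkfb3 fell under the combination in pmel-1 recipients by 1.61 ± 0.59 (adjusted p = 0.0431). It was not called under the combination in control recipients (−1.60 ± 0.64, adjusted p = 0.0765), under trametinib (−1.49 ± 0.64, adjusted p = 0.0915) or under dabrafenib (−0.98 ± 0.64, adjusted p = 0.258). The call was lost without either pmel-1 vehicle replicate or without combination replicate 1 or 2, and the difference was 0.30 when the 3′ over 5′ ratio entered the fit. Its other probe set above the filter was the 1 of 31 such probe sets, over 18 genes, that went opposite to the chosen one between the drugs (−0.03 against 0.51). Pfkfb4 rose under dabrafenib by 0.43 ± 0.12 (adjusted p = 0.0150), a call lost without dabrafenib replicate 2 or either pmel-1 vehicle replicate, and with the RNA ratio (0.27, adjusted p = 0.288).

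The 3 genes that handle pyruvate and lactate fell together under dabrafenib. Ldha, which turns pyruvate into lactate, fell by 1.24 ± 0.32 (adjusted p = 0.00994). Slc16a3, the lactate exporter MCT4, fell by 1.55 ± 0.34 (adjusted p = 0.00396), with 2 of the 13 arrays under the filter level. Pdk1, the kinase that keeps pyruvate out of mitochondria, fell by 1.25 ± 0.29 (adjusted p = 0.00597). None of the 3 was called under trametinib, where they lay at −0.38, −0.60 and −0.20, and none between the drugs, at −0.86 ± 0.32, −0.95 ± 0.34 and −1.05 ± 0.29. For each, both dabrafenib arrays were below both trametinib arrays (19.6% of all genes). Under the combination all 3 fell in pmel-1 recipients (−0.98, −1.14 and −0.95), and Ldha and Slc16a3 fell in control recipients (−1.27 and −1.52). The Ldha call under dabrafenib was lost without dabrafenib replicate 2, while those of Slc16a3 and Pdk1 held without each of the 4 arrays. All 3 were lost when the RNA ratio entered the fit, where Ldha was at −0.36, Slc16a3 at −0.64 and Pdk1 at −0.46 (adjusted p = 0.418, 0.170 and 0.260). The combination's 3 calls in pmel-1 recipients were lost with it too (−0.09, −0.21 and −0.15, adjusted p = 0.863, 0.689 and 0.745). They were also lost without pmel-1 vehicle replicate 1 for all 3 genes, without vehicle replicate 2 for Ldha and Pdk1 and without combination replicate 2 for Ldha. In control recipients both were lost without control combination replicate 3, and Ldha also without control vehicle replicate 1.

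Among the genes that sense oxygen, Egln3 changed the most of all 31. It read 9.77 and 9.67 in pmel-1 vehicle tumours, 7.66 and 6.74 under dabrafenib, 7.85 and 7.88 under trametinib and 7.17, 6.90 and 7.30 under both drugs. In control recipients it read 9.47 and 9.29 under vehicle and 6.88 and 6.24 under both drugs. No drug array came within 1 log2 unit of a vehicle array. Egln3 fell by 2.52 ± 0.27 under dabrafenib (5.73-fold, adjusted p = 5.52e-05) and by 1.86 ± 0.27 under trametinib (3.62-fold, adjusted p = 3.67e-04). It fell under the combination too, at −2.60 ± 0.25 and −2.82 ± 0.27 in pmel-1 and control recipients (adjusted p = 1.84e-05 and 2.89e-05). These 4 calls held under each alternative run. Between the drugs it was at −0.66 ± 0.27 (adjusted p = 0.359). Egln1, the main oxygen sensor, fell under dabrafenib by 1.06 ± 0.27 (adjusted p = 0.00837) and under the combination in pmel-1 recipients by 0.90 ± 0.24 (adjusted p = 0.0108), and stood at −0.08 ± 0.27 under trametinib. Both Egln1 calls were lost without pmel-1 vehicle replicate 1, and the first also without dabrafenib replicate 2. With the RNA ratio in the fit both were lost (−0.35 and −0.17, adjusted p = 0.355 and 0.675). The other Egln1 probe set, above the filter level on all 13 arrays, gave −1.99 under dabrafenib, −0.91 under trametinib and −2.20 and −1.32 under the combination in pmel-1 and control recipients, so the value near 0 under trametinib depends on the probe set.

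Hif1a, the subunit that responds to oxygen in most cells, was called in none of these comparisons. It read 12.23 and 12.41 in pmel-1 vehicle tumours, 12.40 and 12.15 under dabrafenib, 12.73 and 12.38 under trametinib and 11.97, 12.30 and 12.49 under both drugs, and in control recipients 12.47 and 11.97 under vehicle and 12.54 and 12.39 under both drugs. The groups overlapped throughout. The 95% intervals against vehicle ran from −0.50 to 0.40 for dabrafenib and from −0.21 to 0.68 for trametinib, and the protein, by which HIF is mainly regulated, was not measured here. A dimmer Hif1a probe set above the filter level on all 13 arrays gave 0.40 under dabrafenib and 0.60 under trametinib, and one above it on 4 arrays gave −1.26 and −0.88. Epas1 was higher in drug-treated tumours. It read 9.70 and 9.78 in pmel-1 vehicle tumours, 9.99 and 10.30 under dabrafenib, 10.70 and 10.56 under trametinib and 10.19, 10.60 and 10.54 under both drugs, and in control recipients 9.79 and 9.94 under vehicle and 10.46 and 10.61 under both drugs. Epas1 rose by 0.89 ± 0.15 under trametinib (adjusted p = 0.00102), by 0.70 ± 0.14 under the combination in pmel-1 recipients (adjusted p = 0.00183) and by 0.67 ± 0.15 in control recipients (adjusted p = 0.00572). The second of these was lost when the 3′ over 5′ ratio entered as a covariate (adjusted p = 0.0975). Under dabrafenib Epas1 was at 0.40 ± 0.15 (adjusted p = 0.0558), and dabrafenib minus trametinib was −0.49 ± 0.15 (adjusted p = 0.201). The other Epas1 probe set, with a mean of 5.85 near the filter level, gave 0.02 under trametinib and 0.09 and −0.10 under the combination in pmel-1 and control recipients. Epas1 is abundant in endothelial cells. Of 8 endothelial markers 4 rose under trametinib (median 0.59), 2 rose and 1 fell under dabrafenib (median 0.04), and 4 and 2 rose under the combination in pmel-1 and control recipients (medians 0.34 and 0.17). Of all genes, 19.5% rose under trametinib, and 21.8% rose and 19.6% fell under dabrafenib. Under the combination 24.3% and 18.7% of all genes rose in pmel-1 and control recipients. The summed level of the 8 markers (log2) ranged from 10.06 to 10.20 in pmel-1 vehicle tumours and from 10.15 to 10.66 under both drugs, and in control recipients from 10.40 to 10.59 under vehicle and from 10.54 to 10.73 under both drugs. The part of those cells in the Epas1 values was not tested.

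**Figure D4:**
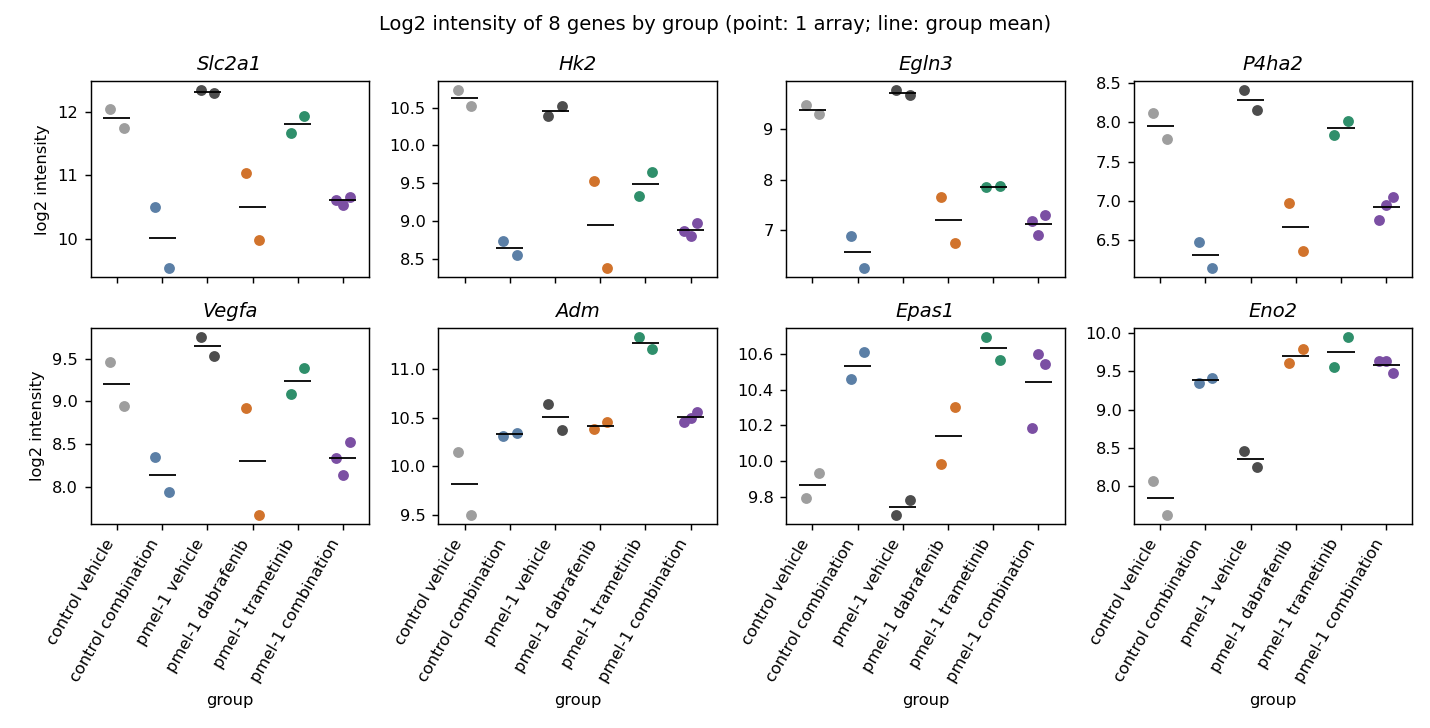
Log2 intensity of 8 genes on each array (points) with the group mean (line), for the 6 groups, each panel with its own axis. For P4ha2, Slc2a1 and Vegfa the trametinib arrays are below the pmel-1 vehicle arrays, and those given dabrafenib or both drugs are lower still. Adm and Epas1 are highest under trametinib, and Egln3 and Eno2 move in every drug group.

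The remaining 9 tested genes are classical hypoxia targets. All 9 are among the 20 of 31 genes with both dabrafenib arrays below both trametinib arrays (19.6% of all genes). For Ankrd37 the gap was narrow, at 6.85 against 6.86. P4ha2 encodes a subunit of the collagen prolyl hydroxylase that stabilises collagen fibres. It read 6.97 and 6.37 under dabrafenib, 7.84 and 8.02 under trametinib, 8.41 and 8.15 in pmel-1 vehicle tumours and 6.75, 6.96 and 7.05 under both drugs. In control recipients it read 8.12 and 7.78 under vehicle and 6.48 and 6.14 under both drugs. Both trametinib arrays were below both pmel-1 vehicle arrays but nearer to them than the dabrafenib arrays, which lay among those given both drugs. Dabrafenib minus trametinib was −1.26 ± 0.20 (95% interval −1.71 to −0.81, limma adjusted p = 0.0248). Against vehicle P4ha2 fell by 1.61 ± 0.20 under dabrafenib (adjusted p = 1.53e-04), by 1.36 ± 0.19 and 1.64 ± 0.20 under the combination in pmel-1 and control recipients (adjusted p = 1.79e-04 and 1.41e-04), and was at −0.35 ± 0.20 under trametinib (adjusted p = 0.210). The 3 calls against vehicle held under each alternative run. The difference between the drugs did not. Its adjusted p was 0.128, 0.0777 and 0.235 without dabrafenib replicate 2 and without trametinib replicates 1 and 2, and 0.206 when only the 4 arrays compared were fitted. It was −1.05 (adjusted p = 0.234) between the 1 array of each drug with the lower 3′ over 5′ ratio.

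Adm encodes adrenomedullin, a peptide that widens vessels. It read 10.38 and 10.46 under dabrafenib, 11.34 and 11.21 under trametinib, 10.64 and 10.38 in pmel-1 vehicle tumours and 10.45, 10.50 and 10.56 under both drugs, and in control recipients 10.15 and 9.49 under vehicle and 10.31 and 10.35 under both drugs. The trametinib arrays were the 2 highest of the 13. Adm rose under trametinib by 0.76 ± 0.18 (adjusted p = 0.00530; 0.0590 with the RNA ratio taken over 4 control genes) and stood at −0.09 ± 0.18 under dabrafenib (adjusted p = 0.733). The difference between them was −0.85 ± 0.18 and just missed the threshold (adjusted p = 0.0538), and it passed in 5 of 15 alternatives. Under the combination Adm was at −0.01 ± 0.16 in pmel-1 recipients and rose by 0.51 ± 0.18 in control recipients (adjusted p = 0.0417), a call that was lost without control vehicle replicate 3 or either control combination replicate, without the filter and with only the arrays compared.

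Vegfa, the vessel growth factor, read 8.93 and 7.67 under dabrafenib, 9.09 and 9.39 under trametinib, 9.76 and 9.53 in pmel-1 vehicle tumours and 8.35, 8.14 and 8.52 under both drugs, and in control recipients 9.46 and 8.95 under vehicle and 8.35 and 7.94 under both drugs. Dabrafenib replicate 1 was close to the trametinib arrays, and replicate 2 was the lowest of the 13. Vegfa fell by 1.34 ± 0.33 under dabrafenib (adjusted p = 0.00757) and by 1.31 ± 0.30 and 1.06 ± 0.33 under the combination in pmel-1 and control recipients (adjusted p = 0.00454 and 0.0281). It was at −0.40 ± 0.33 under trametinib (adjusted p = 0.382) and at −0.94 ± 0.33 between the drugs (adjusted p = 0.273). Without dabrafenib replicate 2 or pmel-1 vehicle replicate 1 the fall under dabrafenib was not called, nor was the fall in control recipients without control vehicle replicate 1 or control combination replicate 3. Both falls in pmel-1 recipients were lost when the RNA ratio entered the fit (−0.42 and −0.36, adjusted p = 0.329 and 0.383).

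Ankrd37, an ankyrin repeat gene used as a hypoxia marker, read 8.06 and 7.94 in pmel-1 vehicle tumours, 6.85 and 5.94 under dabrafenib, 6.86 and 7.39 under trametinib and 6.61, 6.35 and 6.69 under both drugs. In control recipients Ankrd37 read 8.13 and 7.68 under vehicle and 6.55 and 6.29 under both drugs. It fell in all 4 comparisons, by 1.60 ± 0.28 under dabrafenib (adjusted p = 9.63e-04), by 0.87 ± 0.28 under trametinib (adjusted p = 0.0270) and by 1.45 ± 0.25 and 1.49 ± 0.28 under the combination in pmel-1 and control recipients. The trametinib call was lost without either pmel-1 vehicle replicate or without trametinib replicate 1. With the RNA ratio in the fit it was at −0.26 (adjusted p = 0.423), and the combination's call in pmel-1 recipients was lost (−0.67, adjusted p = 0.0561). Bnip3, which marks mitochondria for degradation, fell under dabrafenib by 1.66 ± 0.41 (adjusted p = 0.00738) and was at −0.10 ± 0.41 under trametinib. Its difference between the drugs was −1.56 ± 0.41 (2.95-fold, adjusted p = 0.121), with 11.96 and 10.46 under dabrafenib and 12.59 and 12.95 under trametinib. The fall of Bnip3 under dabrafenib was not called without dabrafenib replicate 2 or with the RNA ratio in the fit (−0.59, adjusted p = 0.322). Bnip3 also fell under the combination, at −1.17 ± 0.37 in pmel-1 recipients (−0.08 with the RNA ratio, adjusted p = 0.912) and −1.32 ± 0.41 in control recipients. The first of these was lost without either pmel-1 vehicle replicate or combination replicate 2, and the second without either control vehicle replicate or control combination replicate 3. Its relative Bnip3l lay between −0.42 and −0.33 between the drugs on 3 probe sets shared with a pseudogene.

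Car9, the carbonic anhydrase that disposes of acid at the cell surface, fell under dabrafenib by 1.46 ± 0.48 (adjusted p = 0.0309), with arrays at 7.89 and 6.08. The call was lost without dabrafenib replicate 2 or either pmel-1 vehicle replicate, and with the RNA ratio (−0.22, adjusted p = 0.802). Car9 was not called under the combination in control recipients (−1.25 ± 0.48, adjusted p = 0.0665) or pmel-1 recipients (−0.86 ± 0.44), or under trametinib (−0.14 ± 0.48). P4ha1, the second collagen hydroxylase subunit, fell by 1.04 ± 0.20 under dabrafenib (adjusted p = 0.00179) and by 0.80 ± 0.18 and 0.91 ± 0.20 under the combination in pmel-1 and control recipients. The combination's call in pmel-1 recipients was lost when the RNA ratio entered the fit (−0.21, adjusted p = 0.314). Ddit4, the stress gene that restrains mTOR, fell by 1.11 ± 0.20 under dabrafenib (adjusted p = 0.00144) and by 1.05 ± 0.19 under the combination in pmel-1 recipients (adjusted p = 8.87e-04), while in control recipients it was at −0.43 ± 0.20 (adjusted p = 0.131). Under trametinib P4ha1 was at −0.32 ± 0.20 and Ddit4 at −0.37 ± 0.20, neither called. A dimmer P4ha1 probe set, above the filter level on 7 arrays, gave −1.17 under trametinib. Ndrg1, a stress gene of differentiating cells, was called in none of the comparisons with vehicle, at −0.08 ± 0.29 under dabrafenib and 0.54 ± 0.29 under trametinib, and 2 of its 5 probe sets, the dimmest, gave −0.83 and −0.43 under dabrafenib and −0.25 and −0.22 under trametinib.

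The combination was then set against each drug alone in pmel-1 recipients, to see which drug its values resembled. Against dabrafenib limma called 0 of 31 genes, 0 had an unadjusted p under 0.05, and the arrays of all 31 overlapped. Over all genes it called 0%, with 1.78% at an unadjusted p under 0.05, and the arrays of 4.93% lay wholly below and of 6.10% wholly above dabrafenib. The differences are not shown to be nil: the interval for P4ha2 ran from −0.16 to 0.66 and that for Bnip3 from −0.33 to 1.30. Against trametinib 30 of 31 genes were below 0 (48.4% of all genes), and P4ha2 (−1.01 ± 0.19, adjusted p = 0.0307) and Adm (−0.77 ± 0.16, adjusted p = 0.0492) fell, with 1.10% of all genes called and 0.239% lower. Both calls were lost when any 1 of the 5 arrays was left out. This comparison shares the trametinib arrays with that of the 2 drugs and is no independent support for it.

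The transfer itself was compared between recipients. Among vehicle tumours limma called 0 of 31 genes (0% of all genes), with 6 at an unadjusted p under 0.05 (13.2% of all genes), Adm at 0.69 ± 0.18 and Ddit4 at 0.76 ± 0.20 having the smallest p. Without control vehicle replicate 1 the count was 2. The median over the 31 genes, pmel-1 minus control, was 0.27 (−0.02 over all genes), so equal levels are not shown. Under the combination 1 of 31 genes was called (4.24% of all genes), and the median was 0.24 (−0.008 over all genes). Slc2a3 was higher in pmel-1 than in control recipients by 0.79 ± 0.15 (adjusted p = 0.0168), and that call was lost without pmel-1 combination replicate 1 or 2 or either control combination replicate, and with the RNA ratio (0.52, adjusted p = 0.476). The interaction, which sets the combination's effect in pmel-1 recipients against that in control recipients, was called for 0 of 31 genes by limma (0.283% of all genes). Ddit4 had the smallest p, at −0.62 ± 0.28.

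Other genes of the pathway were compared between the drugs as well. Of 32 other hypoxia targets 1 fell (0.189% of all genes), Ero1a, an oxidase that folds secreted proteins (−0.98 ± 0.17, limma adjusted p = 0.0296). The difference was below 0 for 27 of them (48.4% of all genes), with a median of −0.22. Ero1a read 10.17 and 9.73 under dabrafenib, 10.82 and 11.04 under trametinib and 11.01 and 10.89 in pmel-1 vehicle tumours. Tgfbi (−1.03 ± 0.24), the glycogen synthase gene Gys1 (−0.53 ± 0.14) and the lipase inhibitor gene Angptl4 (−1.75 ± 0.46) had the next smallest p and were not called. Angptl4 rose under trametinib by 2.01 ± 0.46 (adjusted p = 0.00518) and was at 0.26 ± 0.46 under dabrafenib. Against vehicle 16 of the 32 fell and 3 rose under dabrafenib, and 6 fell and 6 rose under trametinib, beside 19.6% lower and 21.8% higher of all genes for dabrafenib and 19.1% and 19.5% for trametinib.

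Of 15 HIF pathway regulators limma called 0 between the drugs (0.776% of all genes), with a median of −0.13. An unadjusted p under 0.05 was found for 1 of them (11.8% of all genes). Vhl, the ubiquitin ligase subunit, was at −0.27 ± 0.10, Crebbp, a coactivator, at −0.27 ± 0.15, Siah1a at −0.23 ± 0.13 and Hif3a at −0.17 ± 0.10. Vhl rose under trametinib against vehicle by 0.38 ± 0.10 (adjusted p = 0.00998). Of 38 other genes of glucose and pyruvate use 0 were called (0.776% of all genes), with a median of 0.01. Of these, 4 had an unadjusted p under 0.05 (11.8% of all genes). They were Gpd1 (0.50 ± 0.14), the gluconeogenic Fbp1 (0.61 ± 0.18, near the filter level under trametinib), Slc2a6 (0.56 ± 0.18) and Txnip (−0.54 ± 0.22), an inhibitor of glucose uptake. For Slc2a6 both trametinib arrays were under the filter level, so that the size is not well measured. Txnip rose by 0.92 ± 0.22 under trametinib (adjusted p = 0.00663).

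The 7 pentose phosphate genes had 0 calls between the drugs and 1 unadjusted p under 0.05. Rpe was at 0.35 ± 0.15, Taldo1 at 0.27 ± 0.15, H6pd at −0.13 ± 0.14 and Tkt at 0.12 ± 0.15. The 9 transcription factors of glycolysis had 0 calls and 2 such p, with Max at 0.31 ± 0.10, Foxk2 at 0.26 ± 0.12, Myc at 0.50 ± 0.26 and Tfeb at −0.19 ± 0.11. Of all genes 0.776% were called between the drugs and 11.8% had an unadjusted p under 0.05. Against vehicle both drugs raised Max, the partner of Myc, by 0.71 ± 0.10 and 0.40 ± 0.10, and Tfeb, the lysosome factor, by 0.66 ± 0.11 and 0.84 ± 0.11.

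Genes that ERK signalling induces gave the direct readout of the drugs' pathway. Of 12 such genes 6 fell under dabrafenib (median −1.09) and 8 under trametinib (median −1.62), beside 19.6% and 19.1% of all genes. Limma called 0 of the 12 between the drugs (0.776% of all genes), with a median of 0.46. An unadjusted p under 0.05 was found for 1 of them (11.8% of all genes). Ccnd1, cyclin D1, fell under both drugs, at −1.76 ± 0.41 under dabrafenib and −2.92 ± 0.41 under trametinib, as did Ier3, at −1.08 ± 0.15 and −0.78 ± 0.15. Spred1 was at 0.37 ± 0.18 between the drugs. The ETS factor gene Etv5 separated the dabrafenib arrays the most, at 11.39 and 7.27 in replicates 1 and 2, against 11.74 and 11.95 in pmel-1 vehicle tumours and 7.67 and 6.79 under trametinib. Dabrafenib replicate 2 was below replicate 1 in all 12 genes (47.9% of all genes), with Ccnd1 at 11.08 and 9.51 in replicates 1 and 2. Whether this gap bears on the hypoxia and glycolysis genes was not tested. Between the drugs 4 of these 12 genes were below 0 (48.4% of all genes).

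The 2 arrays of each drug also differed from each other. In 24 of 31 genes dabrafenib replicate 2 was below replicate 1 (47.9% of all genes) (median −0.77 for replicate 2 minus 1). In 27 of 31 trametinib replicate 1 was below replicate 2 (45.8% of all genes), with a median of −0.31. In 22 genes both held, and Pfkfb3, with the widest dabrafenib gap (2.53), had trametinib arrays 0.04 apart. For 21 genes the dabrafenib arrays lay further apart than the means of the 2 drugs. Dabrafenib replicate 2 and trametinib replicate 1 were the arrays with the higher 3′ over 5′ ratio. When the ratio entered the fit the drugs' median difference was −0.55, 28 genes stayed below 0 and 6 were called. With only the lower-ratio array of each drug, dabrafenib replicate 1 and trametinib replicate 2, 28 of 31 were below 0, the median was −0.53 and 0 were called. Against vehicle the covariate moved the medians to −0.35 for dabrafenib, 0.33 for trametinib and −0.08 for the combination in pmel-1 recipients, from −0.98, −0.18 and −0.80. In control recipients, where the ratio lay between 0.19 and 0.42 on all 4 arrays, the median under the combination was −0.77 with and without it. The mean ratio there was 0.27 under vehicle and 0.30 under the combination, so the covariate could move that median little in any case.

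**Figure D5:**
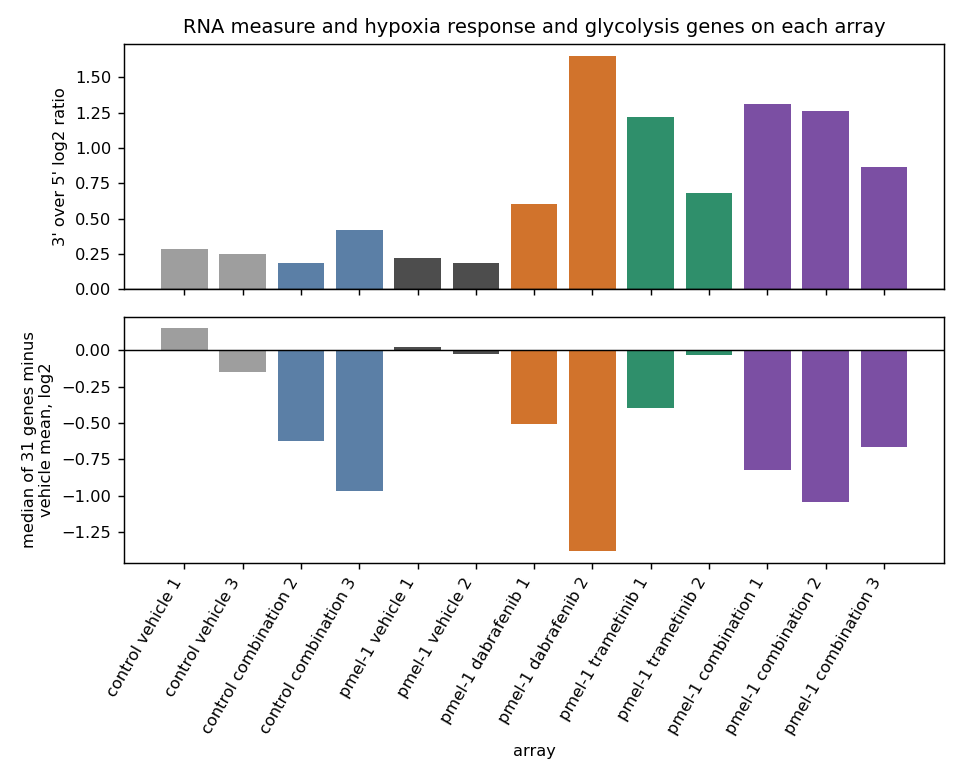
Top, the mean log2 ratio of 3′ over 5′ probe sets of β-actin and Gapdh on each array. Bottom, the median over the 31 genes of the log2 difference from the vehicle mean of the same recipients. Dabrafenib replicate 2 has the highest ratio (1.65) and the lowest median (−1.38). Control combination replicates 2 and 3 have medians of −0.62 and −0.96 at ratios of 0.19 and 0.42.

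Markers of other cells also differed between the drugs. Of 10 macrophage markers 3 were higher under dabrafenib than trametinib (0.588% of all genes), C1qc (1.39 ± 0.23), Lyz2 (1.58 ± 0.30) and Fcgr1 (1.16 ± 0.22). In turn 0 were lower (0.189% of all genes), with a median of 1.14 over the markers. Their summed level was 13.60 and 14.16 (log2) under dabrafenib and 13.06 and 12.69 under trametinib, against 12.50 and 12.74 in pmel-1 vehicle tumours. All 8 endothelial markers were below 0 (48.4% of all genes; median of the markers −0.57), with 0 called by limma and 5 at an unadjusted p under 0.05 (11.8% of all genes). The summed level of these markers was 10.10 and 10.38 under dabrafenib and 10.77 and 10.59 under trametinib. The summed adipocyte level was 12.14 in dabrafenib replicate 2, 11.86 in trametinib replicate 1 and 12.15 in combination replicate 2. It was 8.32, 9.53 and 8.51 in dabrafenib replicate 1, trametinib replicate 2 and combination replicate 1. In combination replicate 3 it was 9.88, and in pmel-1 vehicle tumours 10.36 and 10.51. The summed fibroblast level was 12.18 and 14.19 in dabrafenib replicates 1 and 2, 13.35 and 12.84 in trametinib replicates 1 and 2 and 12.34 and 12.11 in pmel-1 vehicle tumours. Of the melanocyte markers 0 of 10 were called (2 at an unadjusted p under 0.05, median 0.007). Between the drugs limma also called 0 of 6 T cell, 7 fibroblast, 3 adipocyte, 5 skeletal muscle, 2 erythroid, 1 neutrophil and 2 keratinocyte markers, of which 2 T cell markers had an unadjusted p under 0.05. Markers never above 5.79 were Cd2, Lep, Myh4, Hba-a1, S100a9, Cxcr2, Krt14 and Krt1. The part of these cells in the values of the hypoxia and glycolysis genes was not tested.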

How the data were processed

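Total RNA of the tumours was isolated with a column kit, converted to biotin-labelled cDNA and hybridised to Affymetrix GeneChip mouse arrays, per the labels' protocols. The authors deposited log2 intensities per probe set, made with RMA from the affy package, per the submitters' processing notes (versions not given in the sources used here). Of 45101 probe sets 64 are array controls, 34945 carry 1 gene symbol in the platform annotation, 932 several and 9160 none.

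For each symbol the probe set with the highest mean was kept, and a gene was tested where at least 2 arrays read above 5.79, the 40th percentile of the whole table. Group means over all 13 arrays were fitted in R 4.3.3 by limma 3.58.1 (lmFit, contrasts.fit and eBayes with 7 residual degrees of freedom), with Benjamini-Hochberg adjustment over 13785 genes in each of 10 contrasts. An adjusted p under 0.05 is called a rise, a fall or a change. Log2 differences are given ± SE. The fit was tested on simulated data. The number of arrays limits the precision, and detection calls and depth do not apply to these values.

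The genes, lists and markers were chosen with earlier results of these data known. Values on every array are given for genes called between the drugs, those with the 4 smallest p against vehicle, and Hif1a, Epas1, Slc2a1, Hk2, Vegfa and Gapdh. Values of Pfkfb3, Bnip3, Car9, Ero1a, Etv5 and Ccnd1 on some arrays, and lost calls named beside a gene, were picked after they were seen. From each other list the 4 genes with the smallest p between the drugs are named, and of the markers only those called. The listed alternatives (another probe set rule, no filter, fewer arrays, weights, the RNA ratio, 2 scalings, a variance trend, a replicate block, omission of each array) were run. The RNA ratio was taken over β-actin and Gapdh after a ratio over 4 control genes had also been seen.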

Additional observations from a re-analysis of the deposited data

How the results depend on the processing

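Counts of the 31 genes called by limma moved by more than 1.5 times as follows. Between dabrafenib and trametinib the count of 1 became 2 with the mean of all probe sets, median centring, quantile normalization or a variance trend, 6 when the 3′ over 5′ ratio entered the fit, 0 with only the arrays compared and 0 with a replicate block. It was 0 to 16 when 1 array was left out. Another 2 settings chosen after seeing the data gave 8 (the ratio over 4 control genes as a covariate) and 0 (the 1 array of each drug with the lower ratio). The same 4-gene covariate gave 9 for dabrafenib against vehicle, 4 for trametinib, 9 for the combination in pmel-1 recipients, 25 for it in control recipients and 0 for the transfer under the combination, from 19, 8, 18, 16 and 1. With the ratio over β-actin and Gapdh, dabrafenib against vehicle gave 8 and the combination in pmel-1 recipients 6. Combination against trametinib, 2 genes, gave 1 without the filter, 7 with only the arrays compared and 0 with a replicate block. The transfer under the combination, 1 gene, gave 0 with the mean of all probe sets, 2 with only the arrays compared and 0 with a replicate block.

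With 1 array left out the counts ran from 10 to 25 for dabrafenib against vehicle, 4 to 7 for trametinib, 11 to 19 and 9 to 18 for the combination in pmel-1 and control recipients, 0 to 0 against trametinib, and 0 to 2 and 0 to 1 for the transfer under vehicle and the combination. The combination against dabrafenib and the interaction stayed at 0 in all.

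Between the drugs 24 of 31 genes kept their direction in every alternative. With 1 array left out Slc2a3 ran from −0.21 to 0.13, Eno2 from −0.25 to 0.15, Hk2 from −1.11 to 0.0453, Pgam1 from −0.98 to 0.0328, Pfkfb3 from −0.75 to 1.78 and Pfkfb4 from −0.0401 to 0.26. Pfkfb3 turned without dabrafenib replicate 1, Slc2a3 and Eno2 without that array or trametinib replicate 2, and Hk2, Pgam1 and Pfkfb4 without dabrafenib replicate 2. With the lower-ratio arrays alone Pfkfb4 was −0.15 and Hif1a 0.0126. With the ratio as a covariate Pfkfb3 was 0.30 under the combination in pmel-1 recipients. The cause was not tested. Of 64 gene calls in the other contrasts 24 held in every alternative and 34 without each array.

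Of 23 pairs of arrays with the same replicate number in different groups, 4 correlated over 0.1 across genes once group means were removed (−0.46 to 0.45). The highest was dabrafenib replicate 2 with pmel-1 combination replicate 2. In a group of 2 the arrays then mirror each other, so the pairs partly repeat and cannot show whether the numbers pair arrays. The block left 19 calls for dabrafenib, 8 for trametinib and 15 and 13 for the combination against vehicle. With 2 arrays in most groups, a lone remaining array was assumed to vary like the other groups.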
